A study of Rattus norvegicus and Mus musculus with 18 samples.

Results

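The ureteric bud and the metanephric mesenchyme of the rat kidney at E13.5 were compared on the first of 3 Affymetrix oligonucleotide array designs. All probe sets of that design were taken, 8740 besides 59 controls, on 4 of the series' 18 arrays, titled UB 1 and UB 2 for bud and MM 1 and MM 2 for mesenchyme. Neither a strain nor any genotype, allele or treatment that differs between the tissues is given in the labels. About 1200 buds made up 1 pool and about 240 mesenchymes the other. Kidneys were digested for 10 min with DNase and trypsin, mesenchyme was teased away with fine pins, and the purity of each tissue was judged by eye and by lectin staining, per the labels. Each pooled RNA was labelled 2 times from 1 ug of total RNA, and each labelling went to 1 array of this design. The p-values given here therefore measure only labelling and hybridisation spread, not the spread between litters or dissections, and so few arrays limit how precise any value is.

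The kidney forms by an exchange of signals between these tissues. The mesenchyme secretes GDNF, which acts through the receptor Ret and its co-receptor Gfra1 on the bud epithelium and makes it grow out and branch into the collecting duct system. The bud in turn sustains the mesenchyme, where progenitors that depend on Wt1 and Six2 give rise to nephrons, while Foxd1-positive stromal cells lay down matrix and make retinoic acid that acts back on the bud. Epithelial cells of the bud are bound by tight junctions and cadherins and carry keratin filaments, whereas mesenchymal cells carry vimentin.

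Intensities were quantile normalised and compared as log2(intensity + 16). Probe sets whose mean reached an intensity of 111, the table's median, in bud or in mesenchyme were tested, which left 4619. One was called higher or lower in bud if it differed by 2-fold or more, a log2 difference of 1, with a limma p under 0.05 after Benjamini-Hochberg adjustment. The mesenchyme labelings correlated at r = 0.996 across probe sets and the bud labelings at r = 0.981, while bud and mesenchyme arrays correlated at 0.948 to 0.970. The second bud array stood apart from the others. For the Gapdh control its 3' probe set gave 4.43 times the signal of the 5' one, against 1.25 to 1.40 on the other 3 arrays, and for Actb 2.60 times, against 1.13 to 1.47. For Hexokinase it gave 1.77 times, within the 1.76 to 1.95 of the others. Between the bud labelings 117 tested probe sets differed by at least 2-fold, and 115 of them were lower on the second array, while no probe set differed so between the mesenchyme labelings. Every result was therefore also computed from the first bud array alone, in a fit in which that array is assumed to vary like the mesenchyme arrays. That fit has 1 residual degree of freedom and treats the variance as known from the intensity, so its very small p-values carry no information here and only its log2 differences and its calls are given. Its calls rest on those same p-values, so being called there means little more than a 2-fold difference on that 1 bud array. In bulk tissue, fewer cells of a type and less RNA per cell cannot be told apart.

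**Figure D1:**
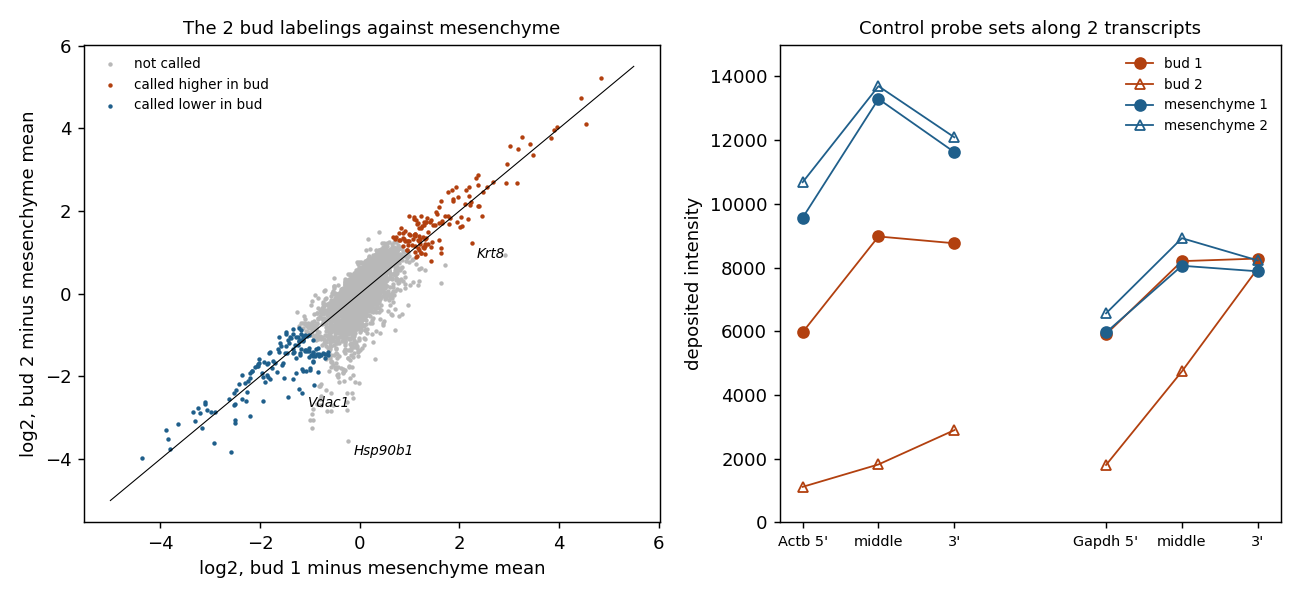
Left, the log2 difference from the mesenchyme mean of each tested probe set on the first bud array (horizontal) and on the second (vertical), with the line of equal values. Points below the line, Hsp90b1 farthest, were lower on the second bud array. Right, deposited intensities (linear axis) of control probe sets at the 5' end, middle and 3' end of Actb and Gapdh on each array, where the second bud array lay lowest at the 5' end of both transcripts.

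Of the 4619 tested probe sets 267 were called (5.78%), 127 higher in bud (2.75%) and 140 lower (3.03%), and the median difference over all tested was 0.02. A further 56 differed by 2-fold without passing the p threshold. In all 267 the bud arrays lay on one side of both mesenchyme arrays, which the call itself nearly fixes, and so they did in 2632 of all 4619 tested probe sets (57%). With the first bud array alone 257 were called (5.56%), 120 higher (2.6%) and 137 lower (2.97%), and 224 of these were among the 267. Each gene was then represented by its brightest probe set with 1 gene symbol, which gave 2852 tested genes with a median of 0.03, of which 166 were called (5.82%), 92 higher (3.23%) and 74 lower (2.59%). Calls without the second bud array included 143 of these 166. Among 377 tested genes on 28 lists of tissue markers and pathways, 34 were higher in bud and 35 lower. The lists were drawn up with results of these data known, so their counts are descriptions. Each count is to be set beside the shares over all tested genes, 3.23% higher and 2.59% lower.

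**Figure D2:**
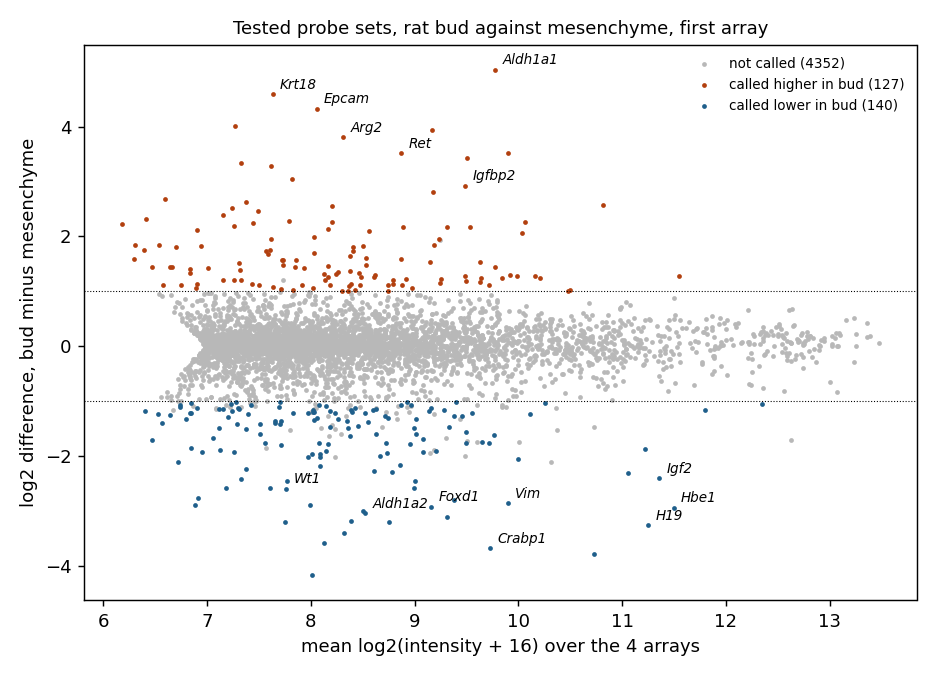
The log2 difference, bud minus mesenchyme, of each tested probe set against its mean log2(intensity + 16) over the 4 arrays. The 127 probe sets called higher in bud are led by Aldh1a1, Krt18 and Epcam, and the 140 called lower include H19, Igf2 and Hbe1 at high intensity. Dotted lines mark a 2-fold difference.

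**Figure D3:**
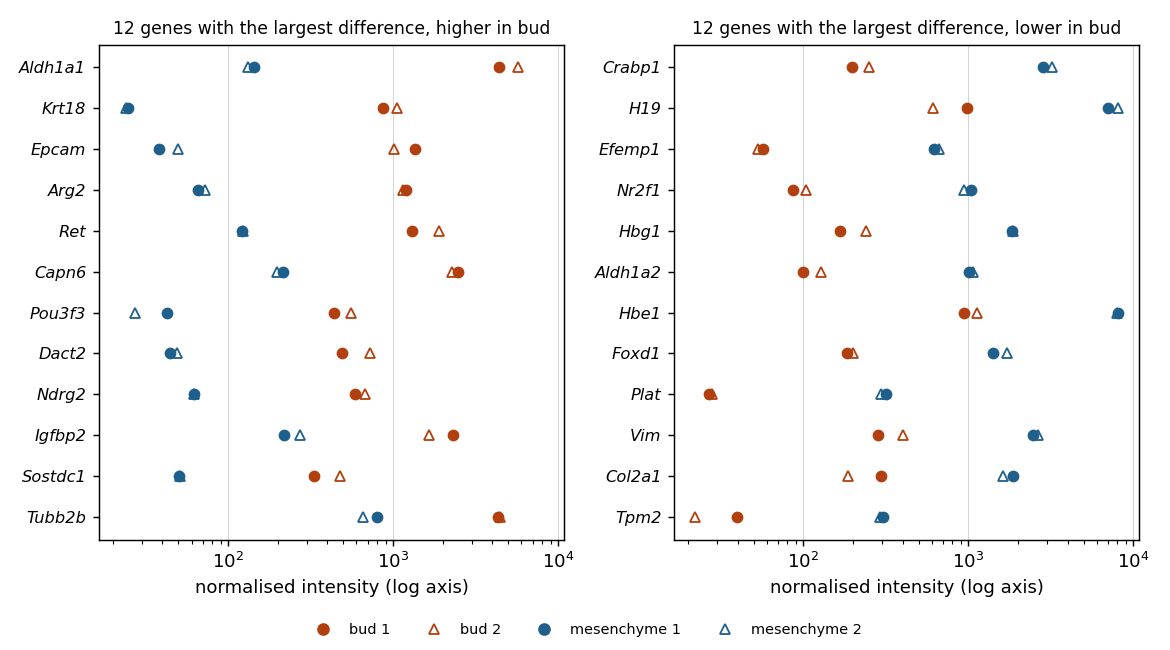
Normalised intensity (log axis) on each of the 4 arrays for the 12 genes with the largest called difference in each direction. Both bud arrays lie on the same side of both mesenchyme arrays in these 24 genes, which were chosen for their large differences, and in 57% of all tested probe sets. Circles are the first and triangles the second labelling of each tissue.

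The bud pool carried the receptor side of GDNF signalling. Ret, the receptor tyrosine kinase for GDNF, had intensities of 1303 and 1890 on the bud arrays and 121 and 124 on the mesenchyme arrays. Both bud values lay far above both mesenchyme values, and the log2 difference was 3.52 (SE 0.19, adjusted p = 0.000127) with both bud arrays and 3.25 with the first alone. Gfra1, the co-receptor that binds GDNF, was at 1245 and 1631 in bud and 508 and 524 in mesenchyme. This was a smaller separation without overlap, a difference of 1.44 (SE 0.16, adjusted p = 0.00224), with both tissues above the median of the table. The other Gfra1 probe set was not called (0.45, adjusted p = 0.284), at 453 and 267 in bud and 243 and 257 in mesenchyme. Averaging the sets ended the Gfra1 call. Spry1, an inhibitor that receptor tyrosine kinase signalling switches on, was at 1867 and 2418 against 474 and 520 (2.06, adjusted p = 0.00047). Arg2, a mitochondrial arginase found at bud tips, was at 1199 and 1148 against 65.5 and 72.9, with a difference of 3.80 (adjusted p = 2.61e-05) and 3.84 with the first bud array alone. These 4 genes were the calls among 6 tested of 21 listed genes of bud tips and RET signalling, and the list's median was 1.75. Of all tested genes 3.23% were called higher. The phosphatase gene Dusp6 was not called, at 896 and 562 in bud and 781 and 870 in mesenchyme (-0.21, adjusted p = 0.632). With the first bud array alone it differed by 0.12, and its other probe set gave 0.51 (adjusted p = 0.0526). Cxcr4, a chemokine receptor, was at 1241 and 627 in bud and 515 and 563 in mesenchyme, and its difference of 0.70 did not pass (adjusted p = 0.2). With the first bud array alone this Cxcr4 probe set differed by 1.18, beyond 2-fold, so the outcome of this set turned on the second array. A dimmer Cxcr4 set was called higher with both bud arrays (2.28, adjusted p = 0.000199), and another gave 0.93 (adjusted p = 0.0354).

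The ligand itself was not called on this design. Gdnf was at 199 and 189 on the bud arrays and 274 and 282 on the mesenchyme arrays, without overlap but with a difference of only -0.48 (adjusted p = 0.0546). Lhx1, a homeobox regulator of the nephric duct and of early nephrons, was at 576 and 596 against 130 and 113, a difference of 2.14 (adjusted p = 0.000192). Among the other duct regulators the paired-box factor Pax8 differed by 0.12 (adjusted p = 0.805). Gata3, which maintains the nephric duct, gave about the same signal on all 4 arrays, 211 and 200 in bud and 202 and 203 in mesenchyme. Nr2f2, an orphan nuclear receptor placed on the same list, was lower in bud, at 61.2 and 46.2 against 342 and 372 (-2.43, adjusted p = 0.000223). Calb1, the calcium-binding marker of the collecting duct, read 37.3 and 52.7 in bud and 17.6 and 14.7 in mesenchyme, all under the intensity required for testing. Wnt11, Wnt7b, Wnt4, Cdh1, Pax2, Gata2 and Eya1 had no probe set with a single gene symbol and are not analysed here.

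Of 16 tested genes of epithelial junctions and polarity 7 were higher in the bud, against 3.23% of all tested genes. Epcam, a homophilic adhesion molecule of epithelia, was at 1366 and 1013 in bud and 38.0 and 49.6 in mesenchyme. Mesenchyme was near the bottom of the scale and the difference was 4.32 (SE 0.19, adjusted p = 6.05e-05), or 4.54 with the first bud array alone. Spint2, an inhibitor of membrane serine proteases, was at 2559 and 2121 against 485 and 466, a difference of 2.26 (adjusted p = 0.000196). Its signal in mesenchyme was above the median of the table. Ezr, the microvillar linker ezrin, differed by 2.56 (adjusted p = 0.000286), the kidney cadherin Cdh16 by 1.82 (adjusted p = 0.000264) and the membrane protease Prss8 by 1.56 (adjusted p = 0.00134). Cldn7, a claudin of tight junctions, was at 541 and 423 against 200 and 219, a difference of 1.13 (adjusted p = 0.00566), and the mucin Muc1 at 224 and 280 against 106 and 108, a difference of 1.11 (adjusted p = 0.00508). Both lay close to the 2-fold threshold, and with the first bud array alone Muc1 differed by 0.96 and was no longer called. Of 46 genes on this list 17 had a probe set, none was lower in bud, and 9 of the 16 tested passed the p threshold, all in the direction of bud. The list's median was 0.80 with both bud arrays and 0.83 with the first alone, where 6 were called. The tight junction genes Cldn3 (0.72, adjusted p = 0.0234), Tjp1 (0.64) and Ocln (0.56) fell short of 2-fold, and the plaque protein gene Jup and the proteoglycan gene Sdc1 both stood at -0.13.

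Keratins of simple epithelia were also higher in bud. Krt18 was at 866 and 1060 on the bud arrays and 24.7 and 24.1 on the mesenchyme arrays. Mesenchyme was near the bottom of the scale, and the difference was 4.59 (SE 0.15, adjusted p = 2.61e-05). Its filament partner Krt8 was at 478 and 226 against 94.1 and 82.1, a difference of 1.73 (SE 0.31, adjusted p = 0.0155) with both bud arrays and 2.25 with the first alone. The second bud array read lower than the first, but both bud values stayed above both mesenchyme values. Krt19 was under the intensity for testing, at 63.3 and 70.9 in bud and 49.0 and 52.4 in mesenchyme. In the stalk and urothelial list of 4 tested genes these keratins were the 2 calls, and the signalling protein Shh (-0.02) and the water channel Aqp3 (-0.22) were not called. Of 8 tested basement membrane genes 1 was called, Lama1, the laminin chain of early epithelial basement membranes, at 158 and 163 against 73.6 and 56.9 (1.13, adjusted p = 0.00646). Agrn, a heparan sulfate proteoglycan of basement membranes, differed by 0.77 (adjusted p = 0.011). Its dimmer probe set was called higher in bud (1.17, adjusted p = 0.0146). The list's median was 0.17.

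The sequence before the start of these epithelial genes was read because they were higher together and because the E-box CACCTG, on either strand, is the element bound by the Snail and Zeb repressors of epithelial genes. RefSeq promoters of the rat assembly GRCr8 were matched for 7 genes among the called junction genes, Krt8 and Krt18, and 5 of these 7 windows (71.4%), those of Cldn7, Epcam, Krt8, Muc1 and Spint2, held CACCTG in the 250 bases before the annotated start. The same letters were in 14.9% of 2511 windows of tested genes, 15.9% of 33469 windows of all genes, 22.2% of 81 windows of genes called higher in bud and 14.3% of 56 windows of genes called lower. The group was put together after its values were known, so these shares are descriptions. Also searched on both strands were the GC box (GGGCGG), the TATA box (TATAAA), the GATA element (AGATAA), the CCAAT box and the CArG box. Matches of different motifs may overlap. In the 7 windows and in those of tested genes, the GC box was in 85.7% and 59.4%, the CCAAT box in 42.9% and 35.4%, the TATA box in 28.6% and 8.16%, the GATA element in 0% and 5.26% and the CArG box in 0% and 1.43%. Snai2, a Snail family repressor, was itself lower in bud, at 65.8 and 52.7 against 179 and 141 (-1.22, adjusted p = 0.0069), and was picked out after its values were seen. On the mouse arrays described below Snai2 was not called (-0.92). There it was at 749 and 598 in bud tips, 3515 and 3351 in bud stalks and 2924 and 2873 in mesenchyme. Whether Snai2 acts on these genes was not tested. The windows of 3 of the called genes with the motif, and that of Krt18 without it, are given 5′ to 3′ on the gene's strand, with CACCTG or its complement CAGGTG in capitals.
Epcam, chr6:12649679-12649928, minus strand: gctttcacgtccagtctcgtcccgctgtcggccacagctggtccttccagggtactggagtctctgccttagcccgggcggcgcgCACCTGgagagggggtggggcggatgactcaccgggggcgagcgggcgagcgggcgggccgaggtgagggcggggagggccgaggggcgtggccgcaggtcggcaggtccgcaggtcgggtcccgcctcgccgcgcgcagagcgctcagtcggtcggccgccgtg
Cldn7, chr10:55188420-55188669, plus strand: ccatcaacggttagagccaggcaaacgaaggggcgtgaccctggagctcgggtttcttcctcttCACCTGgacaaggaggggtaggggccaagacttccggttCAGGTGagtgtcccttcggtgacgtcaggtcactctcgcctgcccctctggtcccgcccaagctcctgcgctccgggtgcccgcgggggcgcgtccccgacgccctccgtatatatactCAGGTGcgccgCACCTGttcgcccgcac
Spint2, chr1:93708092-93708341, minus strand: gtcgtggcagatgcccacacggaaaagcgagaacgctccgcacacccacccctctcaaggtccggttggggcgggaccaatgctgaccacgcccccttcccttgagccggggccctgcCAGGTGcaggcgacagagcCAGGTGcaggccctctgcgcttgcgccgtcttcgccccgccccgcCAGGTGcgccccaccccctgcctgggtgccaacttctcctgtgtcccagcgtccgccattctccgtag
Krt18, chr7:135035918-135036167, plus strand: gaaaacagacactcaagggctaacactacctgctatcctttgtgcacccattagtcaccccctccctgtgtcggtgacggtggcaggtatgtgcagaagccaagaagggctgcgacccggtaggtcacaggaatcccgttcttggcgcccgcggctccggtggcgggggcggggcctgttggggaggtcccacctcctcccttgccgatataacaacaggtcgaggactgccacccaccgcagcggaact

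In these letters Cldn7 held 4 matches, Spint2 3 and Epcam 1. A match is not evidence of binding, and the absence of a match in the Krt18 window covers only these 250 bases.

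The largest difference on the design was in a retinoid enzyme. Aldh1a1, which makes retinoic acid from retinaldehyde, was at 4408 and 5678 on the bud arrays and 143 and 132 on the mesenchyme arrays. The tissues were separated by 5.03 (SE 0.16, adjusted p = 2.61e-05), or by 4.85 with the first bud array alone. Aldh1a2, another enzyme of the same step, ran the opposite way, at 98.8 and 127 in bud and 1011 and 1070 in mesenchyme, a difference of -3.04 (SE 0.15, adjusted p = 9.78e-05). Each tissue thus gave a strong signal for a different retinaldehyde dehydrogenase. Crabp1, a cytosolic carrier of retinoic acid, had the largest difference on the mesenchyme side among genes by their brightest probe set, at 196 and 249 against 2826 and 3230 (-3.68, SE 0.16, adjusted p = 6.05e-05). Its relative Crabp2 was lower in bud by a smaller amount, at 707 and 704 against 1631 and 1743, a difference of -1.24 (adjusted p = 0.00138). These were the 4 calls among 12 tested retinoid genes, 1 higher and 3 lower in bud, with a median of -0.18. All 4 were also called with the first bud array alone. Of all tested genes 5.82% were called in either direction with both bud arrays.

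Several genes placed on an early nephron list, not all of them particular to nephrons, were on the bud side. Pou3f3, a POU-domain factor of the forming nephron, was at 439 and 557 in bud and 42.6 and 27.4 in mesenchyme, a difference of 3.34 (SE 0.20, adjusted p = 0.00017). Sostdc1, a secreted BMP and Wnt antagonist, was at 330 and 476 against 50.7 and 51.0 (2.62, adjusted p = 0.000332), and Ccnd1, a cyclin of the first growth phase, at 1328 and 1463 against 595 and 572 (1.23, adjusted p = 0.00163). Of 4 tested Ccnd1 probe sets this was the only call, the others giving 0.77, 0.17 and 0.08, and averaging them ended it. With Lhx1 these made 4 calls among 10 tested early nephron genes, all higher in bud, and the list's median was 0.19. In the Notch pathway, which acts in the nephron after induction, Notch1 differed by 0.25, its ligand Dll1 by -0.11 and its target Hes5 by -0.09, and none of the 3 was called. Of the other genes among the 12 largest, Capn6, a calpain family member without protease activity, was at 2468 and 2265 against 214 and 197 (3.43, adjusted p = 4.62e-05). Dact2, an intracellular modulator of Wnt and TGF-beta signalling, differed by 3.29, Ndrg2 by 3.05 and the beta-tubulin Tubb2b by 2.57, each without overlap between the tissues.

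Genes of the insulin-like growth factor system and imprinted genes were called in both directions. Igfbp2, a secreted binding protein for these factors, was at 2320 and 1652 in bud and 217 and 274 in mesenchyme, a difference of 2.92 (SE 0.20, adjusted p = 0.000283). Igf2, the fetal growth factor expressed from the paternal allele, was at 1066 and 1182 against 6048 and 6026, a difference of -2.41 (SE 0.12, adjusted p = 9.78e-05). That call rests on 1 of 4 tested Igf2 probe sets, the others giving -0.35, -0.02 and 0.09, and it was lost when all were averaged. H19, the non-coding RNA of the same imprinted cluster, was at 981 and 607 against 7038 and 8082 (-3.26, SE 0.23, adjusted p = 0.000286). Both were among the brightest called probe sets, and both stayed called with the first bud array alone, at -2.48 and -2.92. Plagl1, an imprinted zinc-finger factor, followed at 440 and 533 against 2283 and 1868 (-2.06, adjusted p = 0.000474). Igfbp3, another binding protein, was near the threshold with -1.02 (adjusted p = 0.012). Of 18 tested genes of this list 1 was higher and 4 were lower in bud, with a median of -0.25. The receptors Igf1r (-0.37) and Insr (0.07) and the imprinted genes Cdkn1c (-0.07) and Grb10 (-0.10) were not called.

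Regulators of the nephron progenitor were lower in the bud. Wt1, the zinc-finger factor without which the mesenchyme dies, was at 77.3 and 67.3 on the bud arrays and 522 and 513 on the mesenchyme arrays. The tissues were well apart, with a difference of -2.60 (SE 0.13, adjusted p = 9.78e-05) and of -2.52 with the first bud array alone. Fgfr1, a receptor for the fibroblast growth factors that keep progenitors alive, was at 255 and 146 against 1291 and 1178 (-2.58, SE 0.24, adjusted p = 0.00101). Uncx, a homeobox factor of the metanephric mesenchyme, was at 176 and 236 against 913 and 1030 (-2.16, adjusted p = 0.00047), and Cited1, a transcriptional co-regulator of the cap mesenchyme, at 183 and 163 against 540 and 603 (-1.64, adjusted p = 0.000564). These were 4 calls among 7 tested of 31 listed progenitor genes, none was higher, and the median was -1.64. Of all tested genes 2.59% were called lower. Ncam1 (-0.16) and Bmp7 (0.36) were not called, and neither was Gdnf. Hoxa5 was the only call among 4 tested Hox genes, at 56.9 and 64.3 against 361 and 326 (-2.23, adjusted p = 0.000192), and Hoxb7, a gene of the Wolffian duct, differed by 0.60 (adjusted p = 0.042).

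The list of stroma and its matrix held the most calls lower in bud, but it had 26 tested genes where the progenitor list had 7. Foxd1, the forkhead factor of cortical stromal progenitors, was at 184 and 200 in bud and 1413 and 1718 in mesenchyme, a difference of -2.92 (SE 0.15, adjusted p = 9.78e-05). Vim, the vimentin filament gene, was at 285 and 401 against 2476 and 2643, a difference of -2.86 (SE 0.18, adjusted p = 0.000196). Neither overlapped between tissues, and with the first bud array alone they differed by -2.98 and -3.10. The fibrillar collagen genes Col5a2 (-2.58), Col1a2 (-2.01), Col3a1 (-1.91) and Col1a1 (-1.30) were all lower in bud, as were the adhesive matrix genes Fn1 (-1.62) and Vcan (-1.51) and the gelatinase Mmp2 (-1.47). The dimmer Mmp2 probe set was not called (0.05, adjusted p = 0.922). Pdgfra, a growth factor receptor of stromal cells, was at 51.6 and 43.7 against 241 and 209 (-1.92, adjusted p = 0.000514), and Tcf21, a helix-loop-helix factor of stroma and glomerular cells, at 355 and 401 against 1290 and 1342 (-1.76, adjusted p = 0.00039). Vcam1, a cell adhesion molecule, was lower by less, at 105 and 82.7 against 236 and 249 (-1.24, adjusted p = 0.00333). In all 14 of 26 tested stromal genes were lower in bud, against 2.59% of all tested genes, and none was higher. The median was -1.27, and -1.26 with the first bud array alone. Prrx1 (-0.98) and Loxl1 (-0.91) passed the p threshold but not the fold, and Pdgfrb (-0.22), Dcn (-0.38), Bgn (-0.35) and Tnc (0.23) passed neither.

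Other mesenchymal genes among the 12 largest were the matrix protein gene Efemp1 (57.0 and 53.1 against 617 and 660, -3.20, adjusted p = 5e-05), the orphan nuclear receptor gene Nr2f1 (86.3 and 104 against 1045 and 944, -3.18, adjusted p = 6.75e-05) and Col2a1, the cartilage collagen (295 and 187 against 1870 and 1633, -2.81, adjusted p = 0.000441). Plat, the tissue plasminogen activator, was at 26.9 and 28.1 against 318 and 294 (-2.89, adjusted p = 9.78e-05). Of 6 tested smooth muscle genes 2 were lower in bud, the tropomyosin Tpm2 (39.4 and 22.1 against 306 and 291, -2.77, adjusted p = 0.000363) and the intermediate filament gene Des (-1.21, adjusted p = 0.00472). The myosin light chain gene Myl9 (-0.90, adjusted p = 0.0078) and Acta2 (-0.58, adjusted p = 0.0286) differed in the same direction by less than 2-fold, and the median was -0.74. Fzd1, a Wnt receptor, was the 1 call among 9 tested Wnt pathway genes, at 256 and 324 against 798 and 876 (-1.49, adjusted p = 0.00165), and its relative Fzd2 stood at -0.98 (adjusted p = 0.0082) and was called at -1.13 with the first bud array alone. The Wnt target gene Axin2 differed by -0.12. The ligand gene Efnb1 and Vcan were the 2 calls among 11 axon guidance genes, both lower in bud. Beyond Fgfr1 and Pdgfra no call was made among 25 tested growth factors and receptors, and Fst, an activin-binding protein, differed by -0.91 (adjusted p = 0.0087) and was called at -1.03 with the first bud array alone.

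Of 9 tested erythroid genes 3, all globins, were lower in bud, against 2.59% of all tested genes. Hbe1, an embryonic beta-like globin, was at 939 and 1124 in bud and 8082 and 7933 in mesenchyme, a difference of -2.94 (SE 0.13, adjusted p = 7.01e-05), and Hbg1, another beta-like globin, at 167 and 240 against 1842 and 1857 (-3.11, adjusted p = 0.000167). Hbb was lower by 1.38 on the log2 scale, at 224 and 208 against 595 and 581, while Hbe2 gave about the same signal in both tissues (-0.03). Globin genes are close relatives, so signal may be shared between their probe sets. The list's median was -0.56, and the genes not called included the heme enzyme Alas2 (-0.56, adjusted p = 0.072) and the erythropoietin receptor Epor (0.07). The summed intensity of the list was 3029 and 3243 in bud and 12565 and 12320 in mesenchyme, and no member was at 0, the lowest value on any array being 42.7. The part of blood in the other mesenchymal differences was not tested. Among markers of other cell types, limma called none of 4 tested endothelial, 8 macrophage and leukocyte or 5 adrenal and gonadal genes, and 0 of these had an unadjusted p under 0.05. Over all tested genes 5.82% were called, so few calls could arise among so few genes. A further 6 endothelial, 8 macrophage and leukocyte and 6 adrenal and gonadal genes were too dim to be tested. Whether these cell types were level between the pools was not tested. Summed endothelial intensity was 1332 and 1216 in bud and 1420 and 1328 in mesenchyme. Among 8 tested neuronal genes 1 was higher in bud, Gap43, a growth cone protein, at 275 and 444 against 108 and 108 (1.56, adjusted p = 0.00593).

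**Figure D4:**
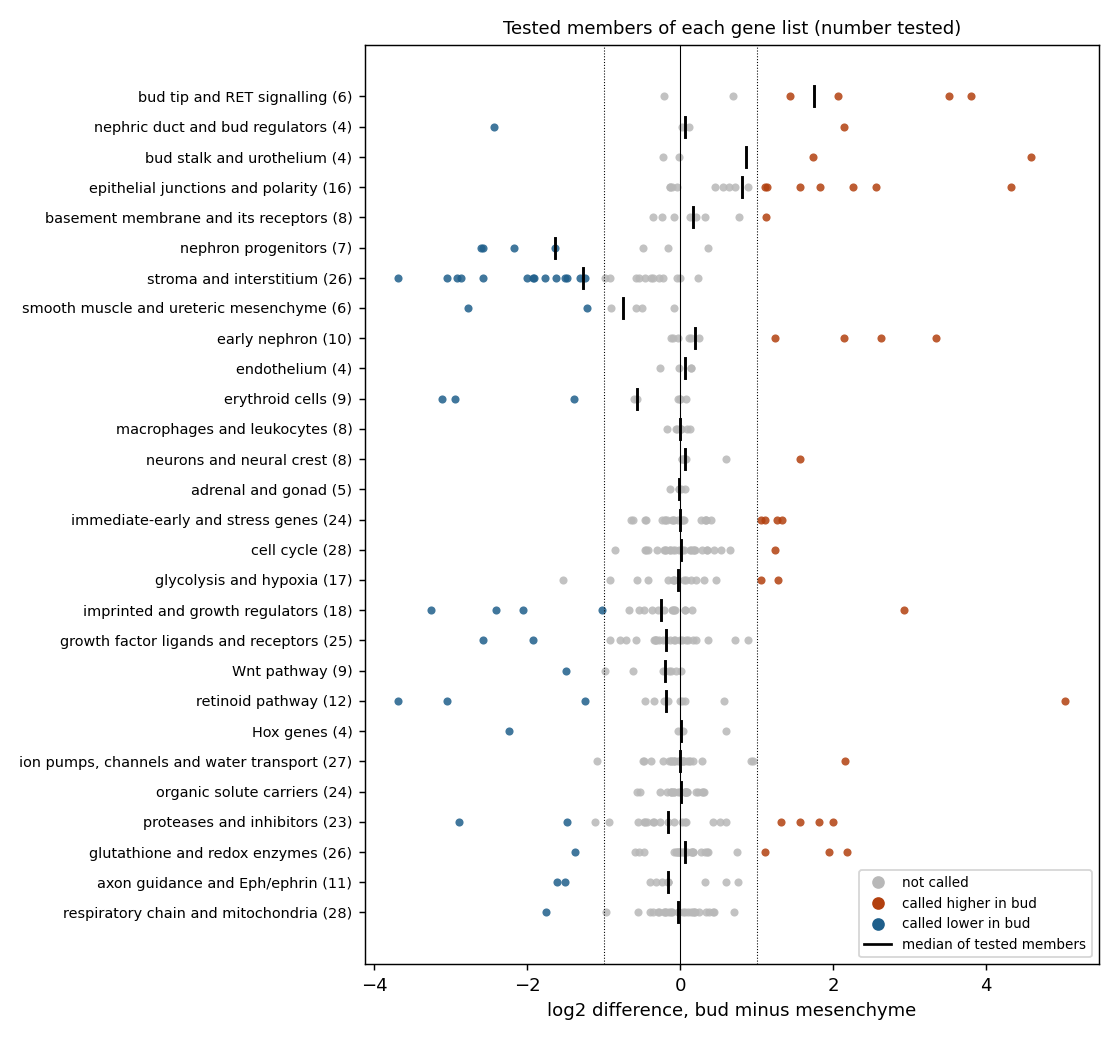
The log2 difference, bud minus mesenchyme, of the tested members of each gene list, with the number tested in brackets and the list's median as a black bar. Called members of the tip, junction and early nephron lists lie to the right of 0, and those of the progenitor, stromal, smooth muscle and erythroid lists to the left.

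Enzyme and stress genes showed scattered calls. Gstm1, a glutathione transferase of the mu class, was at 1593 and 1518 in bud and 357 and 308 in mesenchyme (2.17, adjusted p = 0.000192), and its relatives Gstm5 (1.95) and Gstm2 (1.11) were also higher, although mu-class genes are near-identical in part and may share signal. Gsta4, an alpha-class transferase, was lower, at 171 and 203 against 453 and 565 (-1.37, adjusted p = 0.00269). These were 3 higher and 1 lower of 26 tested glutathione and redox genes, whose median was 0.06. Among 23 tested proteases and inhibitors the lysosomal cathepsins Ctsh (2.00) and Ctsc (1.81), the prohormone processing enzyme Cpe (1.32) and Prss8 were higher in bud, and Plat and Mmp2 lower, with a median of -0.16. Atp1b1, the beta subunit of the sodium pump, was at 864 and 1126 against 194 and 223 (2.16, adjusted p = 0.000466) and was the only call among 27 tested ion pump and channel genes. That count was near the 3.23% of all tested genes called higher in bud. Kcnk1, a potassium channel of this list, was at 198 and 144 against 77.4 and 86.4 (0.92, adjusted p = 0.0211), and with the first bud array alone it differed by 1.13 and was called. None of 24 tested organic solute carriers was called by limma, where 5.82% of all tested genes were, and 2 had an unadjusted p under 0.05.

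Transcription factors of the immediate-early response were also read, since dissection and digestion can induce them. Egr1 was at 4125 and 5218 in bud and 1826 and 2005 in mesenchyme (1.27, adjusted p = 0.00295), and Klf6 at 525 and 563 against 197 and 217 (1.33, adjusted p = 0.00125). Of 4 tested Egr1 probe sets only the brightest was called. The others gave 0.72, 0.08 and 0.08, and averaging the sets ended the Egr1 call. Atf3 (1.06) and Nr4a1 (1.11) were near the threshold, and Nr4a1 differed by 0.88 with the first bud array alone and was not called. Fos was at 1316 and 1291 against 1493 and 1491 (-0.19, adjusted p = 0.378), and Jun differed by 0.34 (adjusted p = 0.136). Of the dimmer Jun probe sets 1 was called higher in bud (1.22, adjusted p = 0.0084), and the others gave 0.65 and -0.41. So 4 of 24 tested genes of this list were higher in bud, against 3.23% of all tested genes, none was lower, and the median was -0.00. The part of tissue handling in other results was not tested. Of 28 tested cell cycle genes the only call was Ccnd1, by 1 of its 4 probe sets, with a median of 0.02. That count, too, was near the 3.23% of all tested genes called higher in bud. Of 17 glycolysis and hypoxia genes the glucose transporter Slc2a1 (1168 and 1044 against 470 and 419, 1.28, adjusted p = 0.00183) and the lactate transporter Slc16a3 (1.05, adjusted p = 0.015) were higher, and Slc16a3 differed by 0.80 with the first bud array alone and was not called. Ldhb, a lactate dehydrogenase subunit, ran the other way, at 204 and 267 against 431 and 475 (-0.91, adjusted p = 0.0146). It was called at -1.09 with the first bud array alone, and its other probe set was called lower (-1.20, adjusted p = 0.0107). Among 28 tested respiratory chain and mitochondrial genes Vdac1, a channel of the outer membrane, was the only call, at 620 and 284 against 1389 and 1531 (-1.75, SE 0.32, adjusted p = 0.0169). The count was near the 2.59% of all tested genes called lower in bud. With the first bud array alone Vdac1 differed by -1.21.

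Probe sets of one gene did not always give the same value. Of 774 genes with more than 1 tested probe set 74 had a call, and in 65 of these 74 all probe sets had the same sign, in 19 all were called in 1 direction and in 0 were calls opposed. The Ret sets gave 4.01, 3.52 and 0.67, the last at 254 and 141 in bud and 111 and 116 in mesenchyme. The Igfbp2 sets gave 3.93, 2.92 and 1.93, and in the last, which was not called, the second bud array read 579 where the first read 2327. Of the 3 Wt1 sets 2 were called and 1 stood at -0.16, and the 4 Col1a1 sets ranged from -3.59 to -0.86. In 27 genes a dimmer probe set was called while the brightest was not. Among these were Cldn3, whose dimmer set gave 1.95 (295 and 459 against 79.8 and 87.8), Cxcr4 with 2.28 (444 and 504 against 77.1 and 92.5), and Acta2, whose dimmer sets gave -1.85 and -1.67 where the brightest gave -0.58. These genes were picked out after their values were seen.

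**Figure D5:**
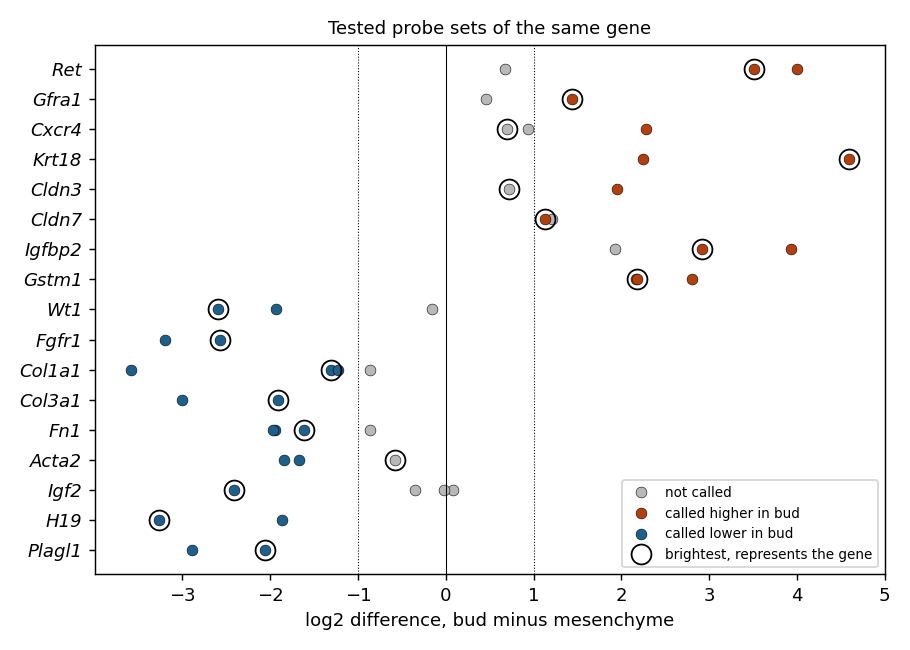
The log2 difference, bud minus mesenchyme, of every tested probe set of 17 genes. A ring marks the brightest set, which represents the gene. The 3 Ret sets lie at 4.01, 3.52 and 0.67, and of the 4 Igf2 sets only the ringed one lies beyond 2-fold.

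The second bud array bore on the weak calls and on genes that were low only there. Leaving it out removed 43 of the 267 calls, 20 higher and 23 lower, and added 33, and all 43 kept their sign, with sizes of 0.63 to 1.00. The 8 probe sets with the largest difference between the bud labelings were all lower on the second array, and none was called. The chaperone gene Hsp90b1 read 943 on the first bud array and 79.5 on the second, against 1041 and 1186 in mesenchyme. Its difference of -1.90 had an adjusted p of 0.258, and with the first bud array alone it was -0.23. The glycolytic gene Aldoa (1875 and 306 against 2291 and 2192), the co-chaperone gene Stip1 (641 and 110 against 754 and 659) and the proteasome gene Psmc2 (392 and 62.9 against 504 and 438) gave the same picture, with -0.25, -0.13 and -0.25 from the first array alone. The elongation factor gene Eef2 (1342 and 261 against 2643 and 2587) differed by -0.95 from the first array alone and the splicing regulator gene Ptbp1 by -0.65, while Tmed2, a cargo receptor gene, differed by -0.15. The eighth of these probe sets had no gene symbol. Among the calls lower in bud 29 had a second bud value at least 1.5-fold under the first, and among the calls higher in bud 3 did. Of the 24 genes with the largest differences all were called with the first bud array alone, and of all 76 called genes named by list or rank Muc1, Nr4a1 and Slc16a3 were lost.

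The same pooled rat RNAs were hybridised to 2 further designs, so the values are not independent, and the tables were normalised separately. On design B, where 5.79% of tested probe sets were called, Wt1 differed by -3.85, Nr2f2 by -4.22, Tubb2b by 3.23 and Ctsh by 2.63, while genes called on the first design but not on B included Tpm2 (-0.37), Slc2a1 (-0.32), Phgdh (0.20), Cxcl14 (0.00) and Anxa1 (-0.01). On design C, where 4.62% were called, Epcam differed by 5.07, and Gata3, level on the first design, was higher in bud by 3.58. Atp1b1 differed by 1.80 and Gsta4 by -2.47 there, while Ndrg2 differed by 0.69 and Col1a2 by -0.48 and were not called. In mouse at E12.5, with the mean of bud tips and stalks against mesenchyme on separate tissue, 9 of the 12 genes named highest in rat bud were called higher (3.59% of all tested mouse genes were) and 8 of the 9 tested of the 12 named lowest were called lower (2.18%). The exceptions were Capn6 (-0.80), Ndrg2 (-0.56), Tubb2b (0.32) and Col2a1 (-0.40), and no test of a difference between species was made.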

How the data were processed

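The authors deposited linear intensities, 1 for each array and probe set, from RNA labelled and hybridised by the manufacturer's procedure, per the labels. How probes were summarised and arrays scaled is not given in the sources used, and every deposited value was above 0, from 9 to 13696. The 4 arrays' trimmed means differed by 2.44%, so values were quantile normalised in limma 3.58.1 with R 4.3.3, set to log2(intensity + 16), and fitted with lmFit and eBayes with an intensity trend, on 4619 of 8740 probe sets. The log2 scale with a pseudocount understates differences of dim probe sets. Gene names came from the platform annotation: 7006 had 1 gene symbol, 308 several and 1426 none, and those with several were not named. Of the 267 calls 226 had 1 symbol, 9 several and 32 none. No level was compared between probe sets.

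Arrays were grouped by title. Named genes were the 12 largest called differences in each direction, the called list members, set anchor genes and the 8 largest differences between bud labelings. The members and lists were chosen with earlier results of these data known. The fit was tested on simulated data: of 200 changed among 4619 probe sets 200 were recovered, with 0 false calls. All planted changes were well beyond the 2-fold threshold, and noise was drawn with the same spread in both tissues. Such large changes are easily recovered, so the result does not cover calls near the threshold. How many calls are missed or false on the deposited arrays, where the bud labelings differ, was not tested. Alternatives were other scalings, pseudocounts of 64 and 1, other filters, no trend, the array number as a block, a test against 1.5-fold, no minimum fold, the mean of a gene's probe sets, and leaving out each array.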

Additional observations from a re-analysis of the deposited data

How the results depend on the processing

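Settings were changed one at a time, and none of the 76 called genes named by list or rank changed sign under any of them. Called probe sets, 127 higher and 140 lower in bud, came to 79 and 80 when tested against a 1.5-fold difference, and to 269 and 270 with no minimum fold. Leaving out 1 array gave 120 to 175 higher and 122 to 293 lower, and the 293 came without the first bud array. The 2 fits with 1 bud array, which have 1 residual degree of freedom, treat the variance as known. Under the values as deposited and the trimmed-mean scaling 256 of the 267 calls were shared, with a pseudocount of 64 it was 204, with a pseudocount of 1 265 and with the 75th percentile filter 203.

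Of these 76 all stayed called as deposited, rescaled, with a pseudocount of 1, unfiltered and without the trend. A pseudocount of 64 lost Cldn7, Muc1, Lama1, Vcam1, Atf3, Nr4a1, Slc16a3, Igfbp3 and Gstm2, and the test against 1.5-fold lost 13, among them Krt8, Des, Gap43 and Vdac1. Without the first bud array Cldn7, Igfbp3 and Gstm2 were lost and Actb became a call, without the first mesenchyme array Nr4a1, Slc16a3 and Igfbp3 were lost, and without the second Lama1 and Igfbp3. Averaging all probe sets lost Gfra1, Mmp2, Ccnd1, Egr1, Nr4a1, Slc2a1, Igf2 and Igfbp3 and added Cldn3. With the array number as a replicate block, 129 were higher and 177 lower, including all 267. The titles do not say whether same-numbered arrays were handled together. Deviations of the same-numbered arrays correlated at 0.309, and what they share was not tested. With the first bud array alone, under alternatives added after the data were seen, 187 to 285 were called. The causes were not tested. Dim probe sets, such as those of Calb1 and Krt19, were not tested.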

Other observations

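Beyond the lists and the 24 largest differences, 90 genes were called by their brightest probe set, and those given here were picked after their values were seen. Among those higher in bud were Ptpn3, a junction-associated phosphatase (115 and 164 in bud, 29.1 and 30.3 in mesenchyme, log2 1.75, adjusted p = 0.00243), Myo5b, a motor of apical recycling (163 and 167 against 65.7 and 46.6, 1.34, adjusted p = 0.00452), and Rab3ip, an activator of the small GTPase Rab8 (98.7 and 170 against 33.5 and 41.8, 1.45, adjusted p = 0.0139). The serine synthesis enzymes Phgdh and Psat1 were higher as well, Phgdh at 1152 and 1543 against 425 and 473 (1.54, adjusted p = 0.00218) and Psat1 at 1281 and 1168 against 535 and 576 (1.12, adjusted p = 0.00265). Of their probe sets 1 of 3 and 2 of 4 were called. Oxr1, a gene of oxidation resistance, had the largest difference among the 90 in this direction (2.39).

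Lower in bud were the forkhead gene Foxc2 (32.0 and 37.4 against 186 and 222, -2.12, adjusted p = 0.000458), the endocytic adaptor Dab2 (-1.90), the lectin Lgals1 (217 and 210 against 797 and 738, -1.77, adjusted p = 0.000318) and Cdh2, the cadherin of mesenchymal and nephron precursor cells (92.4 and 127 against 293 and 332, -1.40, adjusted p = 0.00336). The imprinted gene Nnat was lower as well (479 and 406 against 1652 and 1433, -1.77, adjusted p = 0.000603). Foxd4 (-1.78) and the brighter of 2 tested Foxd3 probe sets (-1.78) were lower like their relative Foxd1, and signal may be shared among them, while the other Foxd3 set gave 0.16 (adjusted p = 0.549). Rhoa (182 and 79.9 against 480 and 570, -1.97, adjusted p = 0.0107) and Tpm4 (644 and 252 against 1227 and 1215, -1.55, adjusted p = 0.0458) had a second bud value well under the first. With the first bud array alone Rhoa differed by -1.44 and stayed called, and Tpm4 differed by -0.91 and did not.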
